A study of Caenorhabditis elegans with 6 samples.

Results

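The comparison described here sets the insulin receptor mutant *daf-2(-)* against wild type (WT) in whole-animal RNA-seq of *Caenorhabditis elegans*, and covers 4 of the 6 libraries of the series. The samples were chosen by genotype alone: 2 WT libraries, made from the strain N2, and 2 *daf-2(-)* libraries, made from the strain carrying *daf-2(e1370)*, an allele that lowers the activity of the receptor without removing the gene. Both strains were grown at 20 °C on plates of *E. coli* OP50 as mixed-stage cultures, so each library pools embryos, larvae and adults of both a soma and a germline, and the study calls the 2 libraries of a strain biological replicates. A difference between strains in such a sample can be a difference in the RNA of each cell, in the number of cells of a type or in the share of animals at a stage, and these cannot be told apart. Every value below is an RPKM (a read density scaled to the length of a gene's exons and to the number of mapped reads of its library), and 20300 genes above 0 in at least 1 of the 4 libraries were tested.

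The receptor DAF-2 binds insulin-like peptides and signals through the PI3-kinase AGE-1 and the kinases PDK-1, AKT-1 and AKT-2, which keep the FOXO transcription factor DAF-16 out of the nucleus. When signalling through this insulin/IGF-1 pathway (IIS) is low, DAF-16 enters the nucleus, and animals are long-lived and stress resistant, store fat, and as young larvae may arrest as dauer larvae, a non-feeding stage with a cuticle of its own.

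Estimated from the step that a single read adds to the RPKM of weakly expressed genes, a read in a gene of 1 kb was worth 0.0642 and 0.0751 RPKM in WT and 0.072 and 0.105 RPKM in *daf-2(-)*, so that *daf-2(-)* replicate 2 was the shallowest. Between 18275 and 18595 genes were above 0 in a library. Across genes, log2(RPKM + 1) correlated with a Pearson's r of 0.990 for the WT replicates and 0.989 for the *daf-2(-)* replicates, where genes are not independent replicates. Among the 8030 genes whose mean RPKM reached 10, 2.07% differed at least 2-fold between the WT replicates and 1.13% between the *daf-2(-)* replicates. In WT the larger value was in replicate 2 for 125 of these genes and in replicate 1 for 41, and intestinal products such as yolk and lysozymes are among those higher in WT replicate 2. *daf-2* itself was at 8.20 and 8.88 RPKM in WT and 11.2 and 8.84 in *daf-2(-)*. The strains overlapped, with a log2 fold change of 0.20 (SE 0.22), so the level of the mutated gene does not check the labels of this point mutant.

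The test was limma on log2(RPKM + 1), with a call where the unadjusted p did not exceed 0.05 and the fold change on that scale reached 2. On the RPKM as deposited, 1007 genes (4.96%) rose and 1631 (8.03%) fell in *daf-2(-)*. The median log2 fold change over the 14220 genes whose mean RPKM reached 1 was -0.27, so most genes lay somewhat lower in *daf-2(-)*. After median-ratio scaling, which divides each library by its median ratio to the other libraries, that median was -0.02, and 1568 genes (7.72%) rose while 704 (3.47%) fell. The share of calls that were rises was thus 38.2% as deposited and 69.0% scaled. A total of 1004 genes rose and 704 fell on both scalings, and changes are described below relative to this shift, with the calls on both scales. At a limma Benjamini-Hochberg adjusted p of at most 0.05 the counts were 979 and 1552 as deposited and 1520 and 647 scaled. With 2 libraries a strain, a call can rest on a single library, so each library was left out in turn, with the lone library of its strain assumed to vary like the other strain, and the calls that were then lost are named with the genes. Both *daf-2(-)* libraries lay above both WT libraries in 4553 genes (22.4%) and below both in 8765 (43.2%), without regard to the size of the difference. A lack of overlap given below for called genes is a description and not further support, since a call with 2 libraries a strain favours it.

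**Figure D1:**
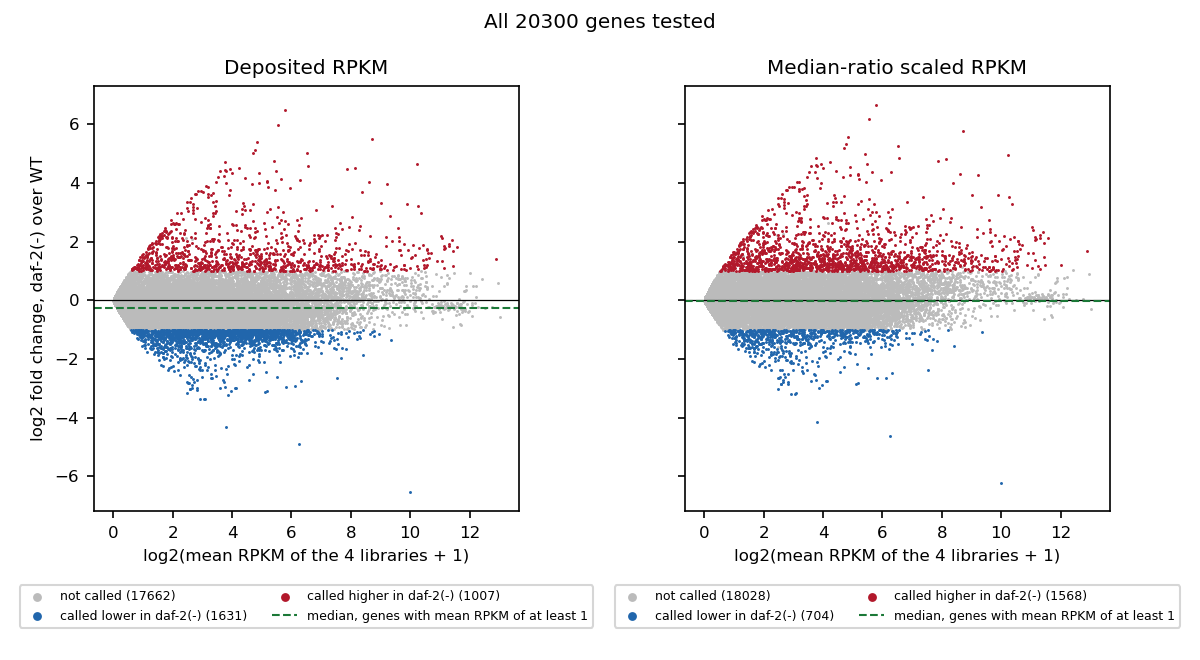
Each point is a gene tested, with the log2 of its mean RPKM over the 4 libraries plus 1 on the horizontal axis and its log2 fold change of *daf-2(-)* against WT on the vertical axis, as deposited (left) and after scaling (right), in red where it rose, blue where it fell and grey where it was not called. The dashed line is the median of genes whose mean RPKM reached 1, at -0.27 as deposited and -0.02 scaled.

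Of the 10 largest rises on the log2(RPKM + 1) scale, 8 were in genes whose WT mean was under 5 RPKM. They were taken from genes called on both scalings, with no overlap between the strains and a mean RPKM that reached 10. The largest was *H39E23.3*, at 0.23 and 0.13 RPKM in WT and 132 and 82.3 in *daf-2(-)* (log2 fold change 6.48 (SE 0.27)). The collagen gene *col-36* was at 0.55 and 0.32 RPKM against 75.8 and 107, *Y39G8B.7* at 0.35 and 0.27 against 47.6 and 61.2 and *Y9C9A.16* at 0.24 and 0.89 against 56.03 and 49.5. The 2 with a higher level in WT were *F21C10.11*, at 12.9 and 23.4 RPKM against 832 and 814, and *far-3*, which encodes a fatty acid and retinol binding protein, at 52.6 and 159 against 2448 and 2185. WT replicate 2 was the higher WT library in both. *F15B9.6* was at 1.25 and 3.06 RPKM in WT and 80.5 and 80.2 in *daf-2(-)*, a log2 fold change of 4.75 (SE 0.29) with a limma Benjamini-Hochberg adjusted p of 0.00057. *Y68A4A.13* was at 4.07 and 5.08 RPKM against 186 and 170.1, and *F56A4.3* at 0.80 and 0 against 74.4 and 24.2, where the *daf-2(-)* replicates agreed less well. The saposin-like gene *spp-9*, of a family of secreted proteins that act on lipid membranes, stood at 27.9 and 22.3 RPKM in *daf-2(-)*. In both WT libraries it was at 0 or not listed, where a gene not listed was set to 0. Since no overlap was a condition of entry, that every *daf-2(-)* library of these genes lay above both WT libraries is no further support.

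The largest fall was that of the invertebrate-type lysozyme gene *ilys-5*, from 1476 and 2567 RPKM in WT to 21.4 and 18.9 in *daf-2(-)* (log2 fold change -6.53 (SE 0.25)). It was followed by *dod-24*, from 122.5 and 169.8 to 4.70 and 3.25 RPKM, the C-type lectin gene *clec-10*, from 20.7 and 30.4 to 0.45 and 0.17, and *F49C5.11*, from 31.1 and 19.96 to 1.93 and 1.61. Both mutant libraries lay far below both WT libraries in these 4. Next came the lipase-related *lips-6*, with 37.97 and 16.15 RPKM in WT and 2.33 and 1.71 in *daf-2(-)* (log2 fold change -3.11 (SE 0.39)), and a pair of genes from the clone ZK1025 on chromosome I. Of the latter, *ZK1025.2* went from 66.2 and 53.97 RPKM to 9.15 and 3.90, and *ZK1025.8* from 68.3 and 59.2 to 8.99 and 4.70. The pair *abu-14* and *pqn-74*, both encoding proteins rich in glutamine and asparagine, fell together: *abu-14* from 27.6 and 31.4 to 2.15 and 3.61 RPKM and *pqn-74* from 20.4 and 20.6 to 1.66 and 1.74. The falls were chosen by the same rule as the rises, so the lack of overlap between the strains in these genes was again a condition of entry. Whether the ZK1025 genes share reads was not tested. *lips-6* lost its call without *daf-2(-)* replicate 2.

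Among 24 measured genes of the insulin cascade, *akt-2* was called on both scalings. The kinase gene *akt-2* stood at 13.6 and 13.5 RPKM in WT and 37.1 and 34.9 in *daf-2(-)*, a log2 fold change of 1.35 (SE 0.16) (limma Benjamini-Hochberg adjusted p = 0.004). The libraries of the strains did not overlap in this gene. *hcf-1*, whose product binds DAF-16 and holds it back, fell as deposited from 39.7 and 48.0 to 22.5 and 16.3 RPKM but was not called after scaling, where its log2 fold change was -0.86. *akt-1* was at 48.5 and 53.1 RPKM against 85.7 and 81.02, above WT in both libraries with a log2 fold change of 0.70 that stayed under the 2-fold threshold. The zinc finger gene *pqm-1* rose on the scaled values only, with 41.4 and 52.4 RPKM in WT and 76.7 and 86.2 in *daf-2(-)*. *hcf-1* lost its call without WT replicate 2 or *daf-2(-)* replicate 2.

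The ligands of the receptor moved more than the cascade. Of 39 measured insulin-like peptide genes (*ins* and *daf-28*), 9 rose and 2 fell as deposited, and 10 and 2 after scaling, against 4.96% and 8.03% of all genes. The highest of those that rose was *ins-27*, at 46.4 and 36.98 RPKM in WT and 96.1 and 112 in *daf-2(-)*. *ins-35* went from 10.99 and 11.2 to 74.3 and 60.5 RPKM (log2 fold change 2.50 (SE 0.17)), *ins-11* from 1.85 and 1.07 to 19.5 and 14.7, and *ins-16* from 0 and 0.63 to 8.48 and 7.11. These 4 peptides were above both WT libraries in both mutant libraries. The 2 that fell, *ins-34* with 4.60 and 5.85 RPKM against 0.51 and 0.75 and *ins-14* with 5.19 and 6.62 against 0.29 and 1.69, were weakly expressed in both strains. With each library left out in turn the count that rose was 8 without WT replicate 1, 10 without WT replicate 2, 6 without *daf-2(-)* replicate 1 and 6 without *daf-2(-)* replicate 2. *ins-14* lost its call without either WT replicate.

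A list of 36 measured genes long known to be raised when IIS is low held 23 that rose and 0 that fell as deposited, and 26 and 0 after scaling; its median log2 fold change was 1.47 as deposited and 1.76 scaled. The list was written from general knowledge of the field, with earlier results of these data known, and is not independent evidence of its direction. The metallothionein gene *mtl-1*, whose product binds heavy metals, was at 54.6 and 155 RPKM in WT and 1010.1 and 849 in *daf-2(-)*. *dod-3* went from 28.3 and 67.5 to 179 and 214 RPKM. *fat-5*, a palmitoyl-CoA desaturase gene, was at 7.08 and 14.99 RPKM against 97.3 and 85.2. WT replicate 2 lay above WT replicate 1 in each of these, and both mutant libraries lay above it. Of the members that were not called, *sip-1*, a small heat shock protein gene, was at 772 and 1264 RPKM in WT and 932 and 856 in *daf-2(-)*, within the range of the WT libraries. *mtl-1* and *dod-3* lost their call without either *daf-2(-)* replicate.

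In the opposite list, of 23 measured genes long known to be lowered, 6 fell and 3 rose as deposited, and 4 fell and 5 rose scaled. As deposited 26.1% fell and 13% rose, against 8.03% and 4.96% of all genes. Scaled, 17.4% fell and 21.7% rose, against 3.47% and 7.72%. The 6 that fell were *dod-17*, *dod-20*, *dod-22*, *dod-23*, *dod-24* and *dao-5*, of which *dod-20* and *dao-5* were not called after scaling. *dod-22*, a CUB-domain gene, was at 16.21 and 15.5 RPKM in WT and 2.48 and 1.11 in *daf-2(-)*. *dod-23* was at 156 and 377 against 71.3 and 85.9. The 3 that rose were the gut esterase gene *ges-1*, from 19.7 and 30.6 to 84.6 and 97.0 RPKM, the lysozyme gene *ilys-3*, from 0.15 and 0.35 to 8.26 and 10.4, and *dao-6*, from 9.62 and 13.3 to 28.4 and 24.2. In all 3 the strains did not overlap. *dod-23* lost its call without WT replicate 2 or either *daf-2(-)* replicate and *dao-6* without WT replicate 1 or *daf-2(-)* replicate 1.

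**Figure D2:**
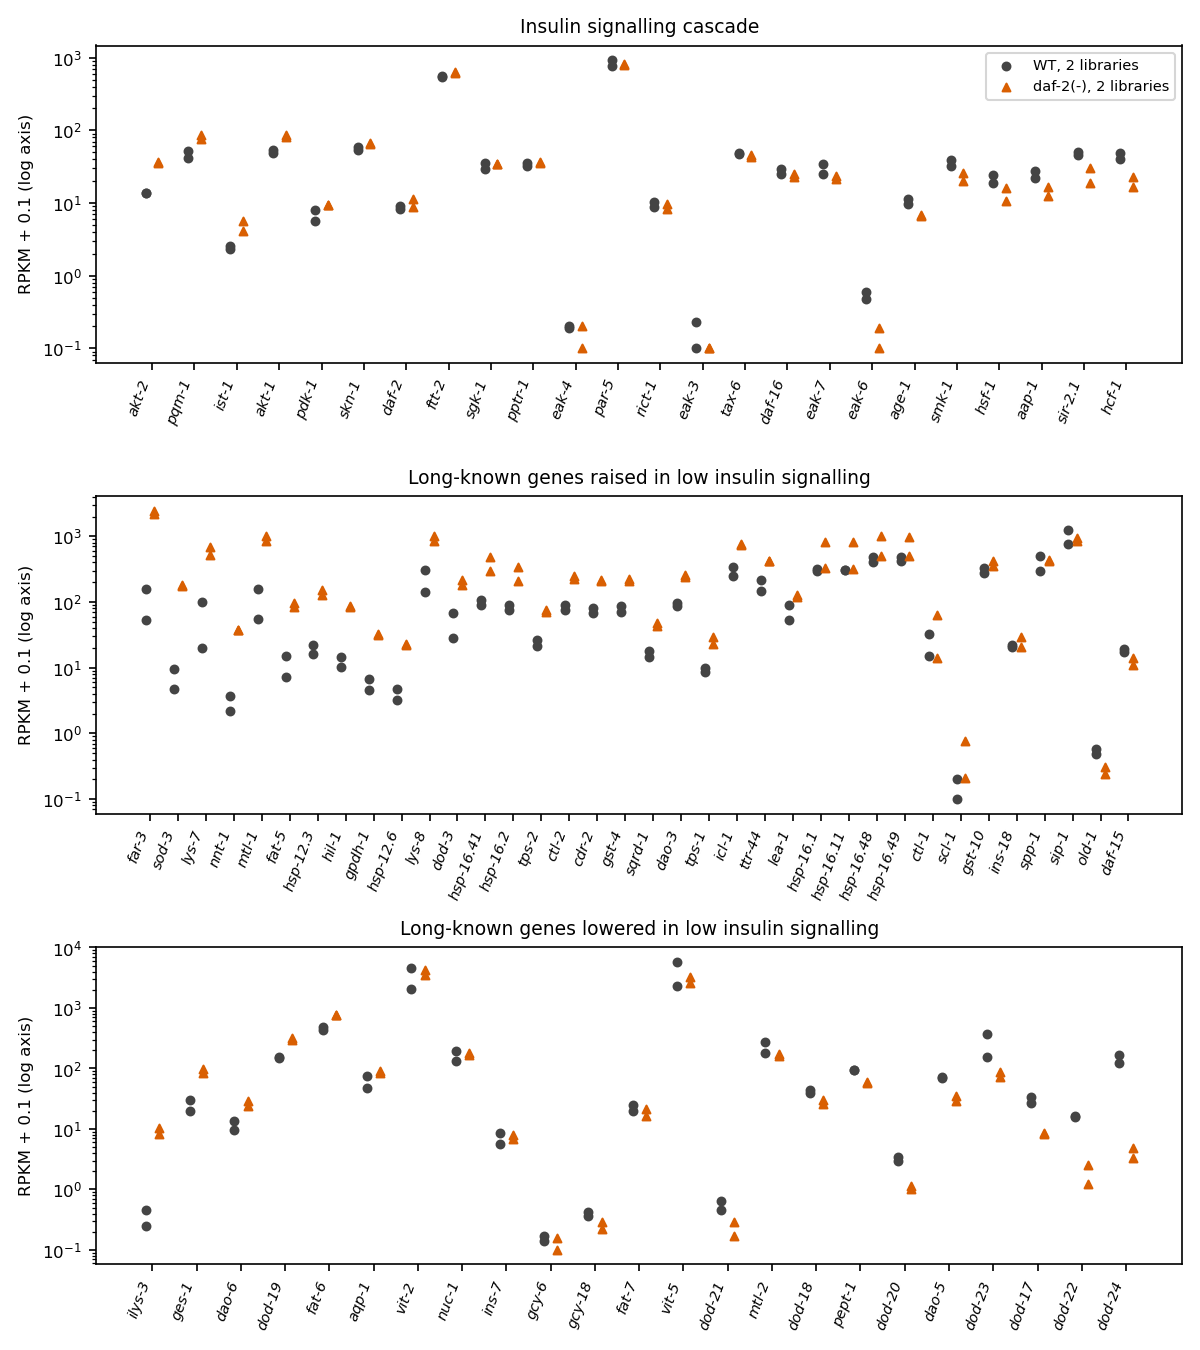
RPKM as deposited plus 0.1, on a log axis, of 24 measured genes of the insulin cascade (top) and of the lists of genes long known to be raised (middle) and lowered (bottom), with a circle for each WT library and a triangle for each *daf-2(-)* library, in order of fold change. In the raised list 23 of 36 genes rose, while in the cascade *akt-2* stands at the left end with both triangles above the circles and *hcf-1* at the right end with both below.

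Collagens of the cuticle rose more often than genes in general. The cuticle is rebuilt by the epidermis at each moult from collagens that are used at set stages. Of 156 measured *col* genes 66 (42.3%) rose and 6 fell as deposited, and 77 rose and 1 fell after scaling. For families and lists the median log2 fold change is given over members whose mean RPKM reached 1, and for the collagens it was 0.94 as deposited and 1.23 scaled. Summed over the family, the collagens took 39807 and 28836 RPKM in the WT libraries and 84938 and 82277 in the *daf-2(-)* libraries, a 2.44-fold difference of the means with no overlap. The count that rose was 61 without WT replicate 1, 46 without WT replicate 2, 49 without *daf-2(-)* replicate 1 and 47 without *daf-2(-)* replicate 2, and the count that fell was 1 without WT replicate 1 and 2 without *daf-2(-)* replicate 2.

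Several of the most abundant collagens were among those that rose. *col-140*, the collagen with the highest mean RPKM, went from 1661 and 1093 to 4588 and 5018 RPKM, and *col-20* from 1351 and 827 to 4212 and 4536. *col-103* was at 255 and 119.3 RPKM in WT and 1754 and 1697 in *daf-2(-)* (log2 fold change 3.30 (SE 0.32)), and *col-98* at 279 and 204 against 2233 and 2214. In all of these WT replicate 1 was the higher WT library, and the *daf-2(-)* libraries lay well above it. *col-19*, the marker of the adult cuticle, rose from 1086 and 494 to 3321 and 3436 RPKM, and the adult collagens *col-7* and *col-62* rose as well. *col-19* lost its call without either *daf-2(-)* replicate.

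Other collagens that rose were close to absent in WT. The dauer collagens *col-2*, at 0.42 and 0.08 RPKM in WT and 13.6 and 35.6 in *daf-2(-)*, and *col-40*, at 0.49 and 0.24 against 16.3 and 42.5, belong here. So do *col-37* with 0.13 and 0 against 11.1 and 31.3 RPKM and *col-108* with 1.40 and 0.40 against 12 and 103.7. In each of these 4 genes *daf-2(-)* replicate 2 was at least 2-fold above replicate 1, unlike the abundant collagens, where the mutant replicates were nearly equal. The exception to the family's direction on both scalings was *col-41*, which fell from 31.3 and 22.7 to 7.98 and 3.07 RPKM. *col-108* and *col-41* lost their call without either WT replicate.

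The collagens named for the body-shape mutants (dumpy, squat, roller, blister and long) did not follow the *col* genes. Of 19 measured, 0 rose and 11 fell as deposited, and 3 fell after scaling, and the median log2 fold change was -1.06 as deposited and -0.78 scaled. *lon-3* fell from 77.2 and 13.7 to 7.56 and 3.09 RPKM, with the WT replicates far apart, and *dpy-7* fell from 129.7 and 81.3 to 38.1 and 31.4. The third that fell on both scalings was *dpy-2*, at 102 and 77.3 against 36.5 and 32.1 RPKM. *sqt-3* was at 668 and 556 RPKM in WT and 269 and 258 in *daf-2(-)*, a fall as deposited only. At the other end, the most abundant member *dpy-5* stood at 695 and 613 RPKM against 556 and 519.6, under the threshold. As deposited the count that fell was 4 without WT replicate 1, 12 without WT replicate 2, 5 without *daf-2(-)* replicate 1 and 3 without *daf-2(-)* replicate 2. *lon-3* lost its call without WT replicate 1 or either *daf-2(-)* replicate and *dpy-7* without either *daf-2(-)* replicate.

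**Figure D3:**
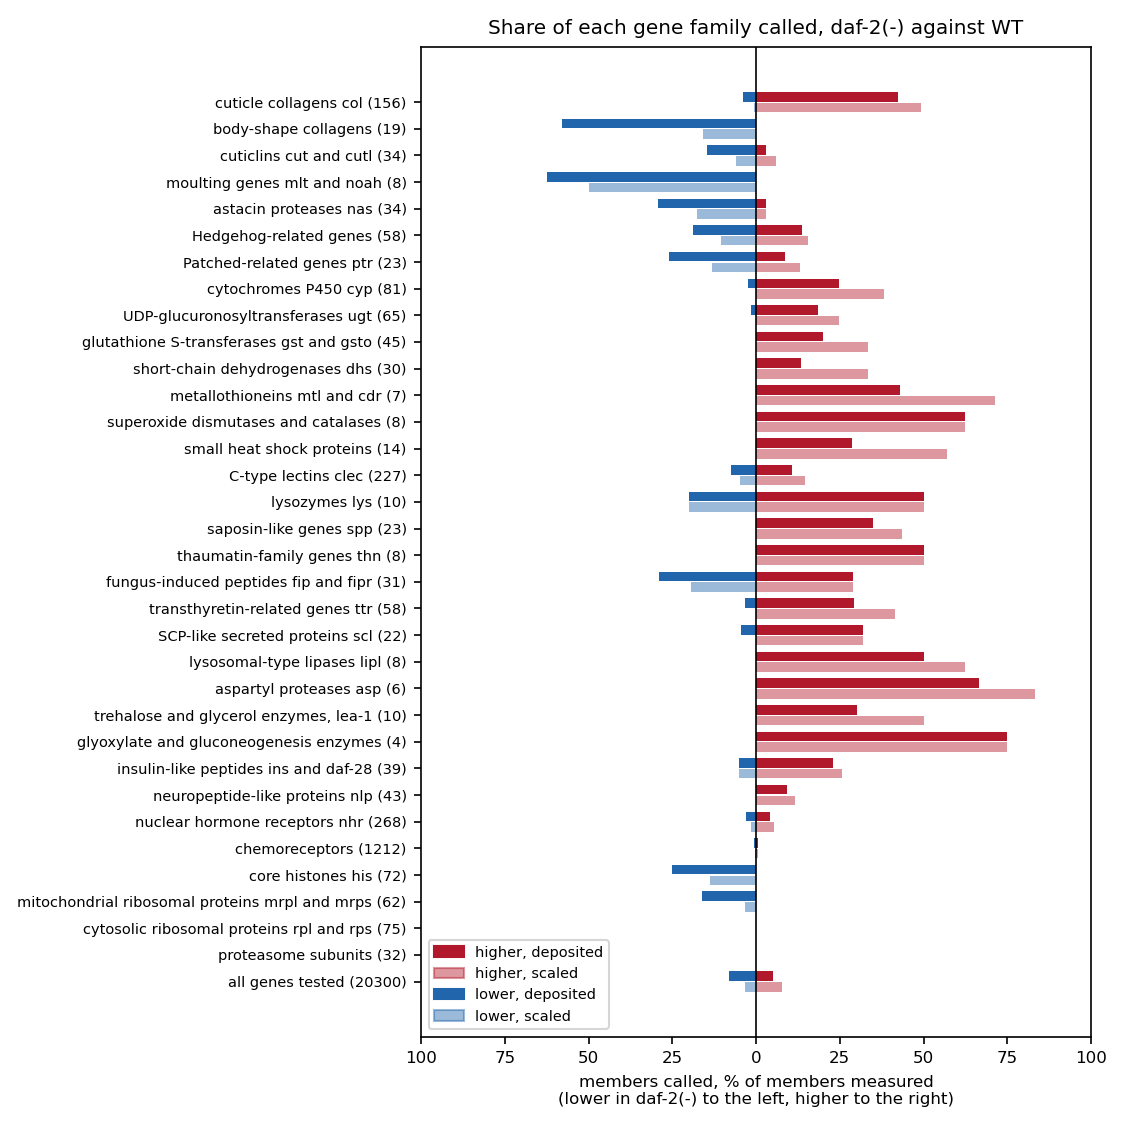
Members of each gene family that rose (right) and fell (left) in *daf-2(-)* against WT as a percentage of the members measured, as deposited and after median-ratio scaling, with the background over all genes (4.96% and 8.03% as deposited, 7.72% and 3.47% scaled). Collagens, lysozymes, SCP-like proteins, cytochromes P450 and insulin-like peptides lie to the right of the background, and body-shape collagens, moulting genes and core histones to the left.

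In the list of 33 larval moulting genes, which holds 12 of those collagens, 19 fell and 0 rose as deposited and 8 fell after scaling. Of the 21 that are not body-shape collagens, 10 fell as deposited and 6 scaled. The protease inhibitor gene *mlt-11* was at 31.8 and 21.5 RPKM in WT and 8.13 and 5.0 in *daf-2(-)*, and *mlt-10* at 48.5 and 37.5 against 15.3 and 11.5. The zona pellucida-domain genes *noah-1*, with 109.8 and 77.5 RPKM against 34.6 and 24.9, and *noah-2*, with 145 and 108 against 50.6 and 41.2, kept their call on both scalings. The WT replicates stood highest in replicate 1 in these 4 genes, and the strains did not overlap. As deposited the count of the whole list that fell was 9 without WT replicate 1, 20 without WT replicate 2, 15 without *daf-2(-)* replicate 1 and 8 without *daf-2(-)* replicate 2.

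Astacin metalloproteases (*nas*), some of which digest the old cuticle, had 10 of 34 that fell and 1 that rose as deposited, and 6 and 1 scaled, and the count that fell was 6 without WT replicate 1 and 6 without WT replicate 2. *nas-36*, needed for shedding the old cuticle, went from 15.9 and 19.99 to 5.81 and 3.19 RPKM, while *nas-9* rose from 6.19 and 7.03 to 24.4 and 19.6. Among the 34 cuticlins, *cut-2* had the largest fall, from 352 and 293 to 50.1 and 50.4 RPKM (log2 fold change -2.66 (SE 0.14)), and *cut-1*, a component of the dauer cuticle, rose from 0.15 and 0 to 1.67 and 5.62. The lipocalin-related *lpr* genes, a family chosen after its values were seen, had 6 of 7 that fell as deposited and 5 scaled. *nas-36* lost its call without WT replicate 2 and *cut-1* without either WT replicate.

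Hedgehog-related genes, secreted proteins of the epidermis and other surfaces, moved in both directions. Of 58 measured, 8 rose and 11 fell as deposited, and 9 rose and 6 fell scaled, and as deposited the count that fell was 7 without WT replicate 1 and 6 without *daf-2(-)* replicate 2. As deposited 13.8% rose and 19% fell, against 4.96% and 8.03% of all genes. Scaled, 15.5% rose and 10.3% fell, against 7.72% and 3.47%. Those that rose as deposited were 7 *grl* genes and *grd-3*, the latter from 141 and 138 to 385 and 354 RPKM. *grl-23* went from 0.11 and 0 to 5.20 and 10.1 RPKM, again highest in *daf-2(-)* replicate 2. The seam cell gene *wrt-10* fell from 239 and 154 to 61.6 and 48.3 RPKM and *wrt-1* from 83.4 and 54.3 to 23.7 and 16.21. Members of the *grl* and *grd* groups fell too, among them *grl-1*, from 12.9 and 10.2 to 3.72 and 2.18 RPKM, and *grd-2*, from 4.61 and 4.14 to 1.65 and 0.69. Of the 23 Patched-related *ptr* genes, 2 rose, with *ptr-22* at 0.72 and 0.78 against 6.61 and 5.49 RPKM, and 6 fell, of which 3 also did scaled, and the count that fell was 2 without WT replicate 1 and 3 without *daf-2(-)* replicate 2. Of the *ptr* genes 8.7% rose and 26.1% fell as deposited, and 13% each scaled. *wrt-10* and *wrt-1* lost their call without *daf-2(-)* replicate 2 and *grd-2* without either WT replicate.

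The dauer list had 5 of 12 measured genes that rose and 0 that fell as deposited, and 7 and 0 scaled. Besides *col-2*, *col-40* and *cut-1* these were the linker histone gene *hil-1* and the small heat shock gene *hsp-12.6*, at 3.07 and 4.66 RPKM in WT and 22.1 and 22.5 in *daf-2(-)*. The first 3 were at 0.49 RPKM or less in both WT libraries and higher in *daf-2(-)* replicate 2 than in replicate 1, while *hil-1* and *hsp-12.6* were nearly equal in the mutant replicates. The heterochronic genes of early larvae had 2 of 7 that fell as deposited, *lin-41* and *lin-42*, and 0 after scaling, and their count was 0 without WT replicate 1, 4 without *daf-2(-)* replicate 1 and 0 without *daf-2(-)* replicate 2.

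Transcripts of oocytes and early embryos were lower in *daf-2(-)*. In the list of oocyte and maternal transcripts, 26 of 32 measured entries (31 genes, with *mex-1* entered at 2 positions) fell and 0 rose as deposited, and 16 fell after scaling, against 8.03% and 3.47% of all genes. The median log2 fold change was -1.30 as deposited and -1.01 scaled. The RNA-binding protein genes *puf-3*, at 19.4 and 15.5 RPKM in WT and 4.79 and 0.62 in *daf-2(-)*, and *spn-4*, at 163 and 195 against 69.2 and 49.99, are needed in the oocyte and early embryo. *oma-1*, which acts in oocyte maturation, went from 59.6 and 67.5 to 23.8 and 18 RPKM (log2 fold change -1.57 (SE 0.19), limma Benjamini-Hochberg adjusted p = 0.0037), and the yolk receptor gene *rme-2* from 83.8 and 85.5 to 32.1 and 24.4. In all 4 genes *daf-2(-)* replicate 2 was the lowest library and both mutant libraries lay below WT. The count that fell was 23 without WT replicate 1, 18 without WT replicate 2, 24 without *daf-2(-)* replicate 1 and 17 without *daf-2(-)* replicate 2. The most abundant entry, *perm-2*, of the eggshell's permeability barrier, did not pass the test, at 577 and 917 RPKM against 725 and 865. *puf-3* lost its call without either WT replicate.

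The eggshell genes overlap with this list and moved with it, 8 of 14 falling as deposited and 6 scaled. *cbd-1*, a chitin-binding protein of the vitelline layer, was at 139.7 and 143 RPKM in WT and 48.2 and 33.6 in *daf-2(-)*, and the chondroitin proteoglycan gene *cpg-1* at 283 and 338 against 114 and 88.3. The egg-surface receptor gene *egg-1* fell from 98.2 and 103 to 46.6 and 32.4 RPKM and the chitin synthase gene *chs-1* from 27.7 and 28.01 to 13.01 and 8.59. In none of these did the strains overlap. The count that fell was 7 without WT replicate 1, 5 without WT replicate 2, 9 without *daf-2(-)* replicate 1 and 8 without *daf-2(-)* replicate 2. *chs-1* lost its call without either WT replicate.

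Genes of germline stem cells and meiosis fell in 10 of 31 cases as deposited and in 2 after scaling, with a median of -0.83 as deposited and -0.54 scaled. The 2 were the translational regulators *gld-1*, from 127 and 129 to 45.5 and 34.8 RPKM, and *gld-3*, from 32.5 and 39.9 to 13.6 and 10.2. Synaptonemal complex genes such as *syp-2*, with 36.7 and 35.3 RPKM against 19.1 and 13.3, were called as deposited only. The count that fell as deposited was 8 without WT replicate 1, 4 without WT replicate 2, 13 without *daf-2(-)* replicate 1 and 3 without *daf-2(-)* replicate 2. The Argonaute gene *csr-1* was at 43.5 and 41.2 RPKM in WT and 49.9 and 45.9 in *daf-2(-)*, not lower. *syp-2* lost its call without either WT replicate or *daf-2(-)* replicate 2.

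Genes of dividing cells showed the same direction. Of the 72 core histone genes 18 fell and 0 rose as deposited and 10 fell scaled. *his-8*, an H2B gene, was at 10.5 and 9.94 RPKM in WT and 2.09 and 0.84 in *daf-2(-)*. *his-7* was at 16.3 and 12.33 against 4.43 and 1.62. The count of histones that fell was 9 without WT replicate 1, 16 without WT replicate 2, 10 without *daf-2(-)* replicate 1 and 11 without *daf-2(-)* replicate 2. Near-identical histone copies may share reads, and their transcripts are poorly captured where libraries select polyadenylated RNA. All 6 subunit genes of the MCM replication helicase fell as deposited, 3 scaled and 3 without *daf-2(-)* replicate 2, and 5 of 7 cyclins fell as deposited and 3 scaled, 2 groups chosen after their values were seen. *cdk-1*, the kinase that drives entry into mitosis and likewise chosen afterwards, went from 118.9 and 126 to 53.3 and 39.95 RPKM. *his-7* lost its call without either WT replicate.

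Embryonic lineage factors were low in every library, between 0 and 40.2 RPKM for each gene, and 8 of 25 fell as deposited and 3 scaled. The T-box gene *tbx-38* was at 2.17 and 5.27 RPKM in WT and 0.54 and 0.34 in *daf-2(-)*, and *pes-10* at 2.24 and 4.59 against 0.17 and 0.68. WT replicate 2 was above WT replicate 1 in both. The count that fell was smaller with any library left out, most so without *daf-2(-)* replicate 2. In *tbx-38* and *pes-10* both *daf-2(-)* libraries lay below both WT libraries. The homeobox family *ceh* had 8 of 59 that fell as deposited and 4 scaled, led by *ceh-32*, with 5.52 and 10.5 RPKM against 1.88 and 1.89, and *ceh-43*, with 13.2 and 16.9 against 5.17 and 4.05. The *ceh* count was 3 without WT replicate 2 and 2 without *daf-2(-)* replicate 2. Of the *ceh* genes 13.6% fell as deposited and 6.78% scaled, against 8.03% and 3.47% of all genes. *tbx-38* and *ceh-32* lost their call without either *daf-2(-)* replicate and *pes-10* without WT replicate 2 or either *daf-2(-)* replicate.

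Sperm transcripts gave few calls. Of 42 measured genes of the sperm list 1 rose and 0 fell as deposited, and 6 rose and 0 fell scaled, and the median log2 fold change was 0.38 as deposited and 0.64 scaled. The count of the list that rose was 3 without *daf-2(-)* replicate 2, and the count that fell was 5 without *daf-2(-)* replicate 1. Major sperm proteins (*msp*), the cytoskeleton of nematode sperm, summed to 2112 and 2424 RPKM in WT and 3698 and 2386 in *daf-2(-)*. The member that rose on both scalings was *msp-55*, from 75.2 and 72.2 to 180.4 and 163 RPKM. *msp-51*, with 137 and 167 RPKM in WT and 316 and 35.5 in *daf-2(-)*, was far apart in the mutant replicates. The *msp* copies are alike in sequence and may share reads. As deposited 1 of 35 *msp* genes rose and 0 fell, and without *daf-2(-)* replicate 1 the counts were 4 and 5. The sperm-specific *ssp*, *ssq*, *sss* and *nspd* genes had 7 of 29 that rose as deposited and 11 scaled, with all 4 *ssq* genes among them. *ssq-4* was at 30.5 and 16.3 RPKM in WT and 92.2 and 88.7 in *daf-2(-)*, and *ssq-2* at 17.7 and 12.2 against 47.2 and 45.05. The family's count was 5 without WT replicate 1, 6 without WT replicate 2, 5 without *daf-2(-)* replicate 1 and 2 without *daf-2(-)* replicate 2, and that of the *spe* genes was 0 of 18 in either direction on both scalings, where limma's unadjusted p was at most 0.05 for 3 of them as deposited. *ssq-4* lost its call without either *daf-2(-)* replicate.

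**Figure D4:**
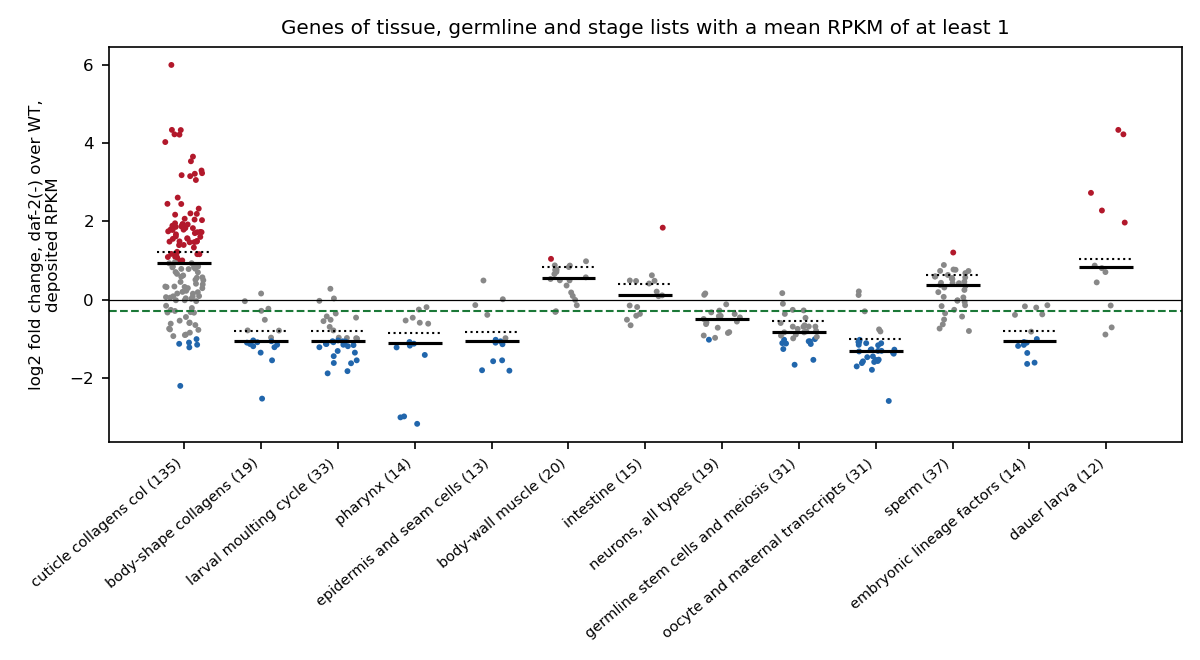
Each point is a gene of a family or of a tissue, germline or stage list whose mean RPKM reached 1, with its log2 fold change of *daf-2(-)* against WT as deposited, in red where it rose, blue where it fell and grey where it was not called. Solid bars are the medians of the lists as deposited, dotted bars those after scaling, and the dashed line the median of all such genes (-0.27). The oocyte and maternal transcripts have a median of -1.30 and the sperm transcripts one of 0.38.

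Of the adult yolk proteins 0 were called. The 5 vitellogenin genes summed to 9169 and 20962 RPKM in WT and 11666 and 14212 in *daf-2(-)*, and both mutant libraries lay between the WT libraries. *vit-2* was at 2094 and 4554 RPKM against 3455 and 4247. *vit-4* was at 2214 and 5215 against 1686 and 1927, below WT in both libraries, without a call. Without WT replicate 1, 2 of the 5 were called lower. Limma's unadjusted p was at most 0.05 for 2 of the 5. The male list had 0 of 13 called in either direction on both scalings, with 1 at an unadjusted p of at most 0.05 as deposited, and its genes were weakly expressed.

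**Figure D5:**
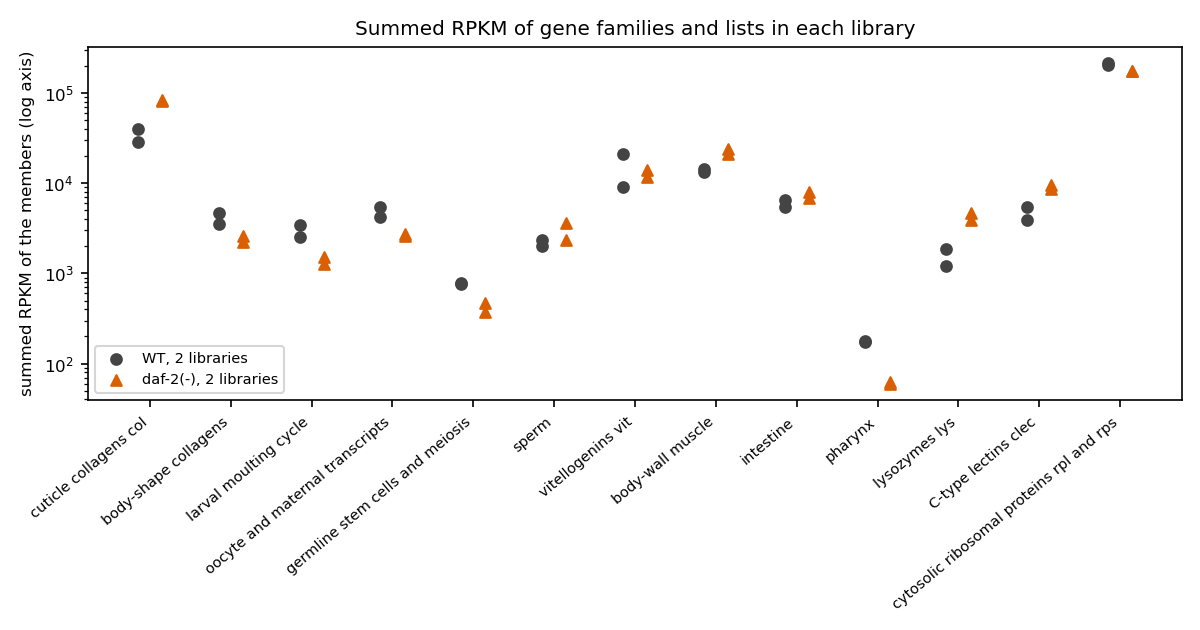
Summed RPKM of selected families and lists, as deposited and on a log axis, with a circle for each WT library and a triangle for each *daf-2(-)* library. The *col* genes go from 39807 and 28836 RPKM in WT to 84938 and 82277 in *daf-2(-)*, while yolk proteins of the mutant, at 11666 and 14212, lie between the WT replicates at 9169 and 20962.

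Among somatic tissues, muscle genes were mostly at a higher level in *daf-2(-)* without reaching the 2-fold threshold as deposited. Of 20 body-wall muscle genes, *tnt-2*, a troponin T gene, rose as deposited, from 479 and 409 to 859 and 972 RPKM, and 8 rose scaled, with a median of 0.55 as deposited and 0.85 scaled. In 16 of the 20 both mutant libraries lay above both WT libraries, against 22.4% of all genes. Limma's unadjusted p was at most 0.05 for 14 as deposited, and the list summed to 13333 and 14461 RPKM in WT and 20921 and 24150.0 in *daf-2(-)*. The count that rose as deposited was 2 without WT replicate 2, 3 without *daf-2(-)* replicate 1 and 0 without *daf-2(-)* replicate 2. The highest of the list, the troponin C gene *pat-10*, was at 3788 and 4102 RPKM in WT and 5407 and 5735 in *daf-2(-)*. Of 15 intestinal genes *ges-1* alone rose on either scale. The intestinal protease gene *asp-1* and the microvillar actin gene *act-5* did not pass the test, at 1179 and 1179 RPKM in WT and 1154 and 1410.3 in *daf-2(-)* for the latter. *tnt-2* lost its call without WT replicate 2 or *daf-2(-)* replicate 2.

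In the pharynx 8 of 17 genes fell as deposited and 5 scaled. With *abu-14* these were *abu-1*, from 10.7 and 9.61 to 0.28 and 0.57 RPKM, and *abu-6*, from 11.1 and 7.29 to 0.06 and 0.18, whose products are thought to line the pharyngeal cuticle and which belong to the same glutamine- and asparagine-rich group as *pqn-74*. *tnc-2*, a troponin C gene of pharyngeal muscle, fell from 37.8 and 38.6 to 13.2 and 14.4 RPKM, and *phat-2* from 5.88 and 4.93 to 2.17 and 1.39. The libraries of the strains did not overlap in these 4 genes. The organ's master regulator *pha-4* was at 5.67 and 7.39 RPKM in WT and 6.29 and 4.92 in *daf-2(-)*, with overlap. *phat-2* lost its call without WT replicate 1.

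Epidermis and seam cell genes fell in 8 of 13 cases as deposited and in 4 scaled, unlike the *col* genes. The 4 were *wrt-10*, *dpy-7* and the nuclear receptor genes *nhr-73*, at 10.8 and 7.31 RPKM against 2.89 and 1.06, and *nhr-74*, at 15.1 and 10.1 against 4.62 and 2.62. The epidermal transcription factor gene *lin-26* went from 40.2 and 37.01 to 18.9 and 16.25 RPKM, a call as deposited only. The count that fell was 3 without WT replicate 1, 6 without WT replicate 2, 8 without *daf-2(-)* replicate 1 and 1 without *daf-2(-)* replicate 2. Neuronal genes fell in 1 of 19 cases as deposited (*snt-1*, synaptotagmin) and in 0 scaled, where the count as deposited was 0 without WT replicate 1, 5 without *daf-2(-)* replicate 1 and 0 without *daf-2(-)* replicate 2. The neuronal fall as deposited was 5.26% of the list, against 8.03% of all genes. Of 25 ciliated neuron genes 0 were called on either scale, and 8 had an unadjusted limma p of at most 0.05 as deposited. *nhr-73* lost its call without either WT replicate or *daf-2(-)* replicate 2, *nhr-74* without WT replicate 1 or *daf-2(-)* replicate 2, and *lin-26* without *daf-2(-)* replicate 2.

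Families of secreted defence proteins of the gut held members that rose and members that fell. Lysozymes cut bacterial cell walls, and of the 10 measured *lys* genes 5 rose and 2 fell on both scalings. *lys-8* was at 141 and 308 RPKM in WT and 853 and 1009.6 in *daf-2(-)*, *lys-2* at 199.97 and 414 against 1179 and 1392 and *lys-1* at 535 and 784 against 1296 and 1502. In each, WT replicate 2 was above replicate 1 and both *daf-2(-)* libraries above it. *lys-4* went the other way, from 309.9 and 243 to 89.7 and 83.5 RPKM, as did the weakly expressed *lys-5*. Of the 4 invertebrate-type *ilys* genes, *ilys-3* rose and *ilys-5*, with the largest fall of all, fell. The number of *lys* genes that rose was 4 without WT replicate 1, 5 without WT replicate 2, 1 without *daf-2(-)* replicate 1 and 1 without *daf-2(-)* replicate 2. *lys-8* and *lys-2* lost their call without either *daf-2(-)* replicate and *lys-1* without WT replicate 1 or either *daf-2(-)* replicate.

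C-type lectins, secreted or membrane proteins that bind sugars, had 24 of 227 that rose and 17 that fell as deposited, and 33 and 11 scaled. The rises were 10.6% as deposited and 14.5% scaled, against 4.96% and 7.72% of all genes. The falls were 7.49% and 4.85%, near the 8.03% and 3.47% of all genes. The mean RPKM reached 1 in 94 of the 227 lectin genes, and with a pseudocount of 0.1 RPKM 37 rose and 37 fell as deposited. *clec-258* was at 22.2 and 22.6 RPKM in WT and 571 and 503 in *daf-2(-)* (log2 fold change 4.52 (SE 0.14)), and *clec-52* at 39.6 and 49.5 against 765 and 712 (log2 fold change 4.03 (SE 0.15)). *clec-63*, the lectin with the highest mean RPKM, went from 600.4 and 932 to 2053 and 2590.0. Against these stood, besides *clec-10*, *clec-47*, which fell from 77.7 and 78.1 to 13.5 and 10.8 RPKM, and *clec-170*, which fell from 15.4 and 15.6 to 2.33 and 1.54. All 5 were without overlap. As deposited the count that rose was 16 without WT replicate 1, 28 without WT replicate 2, 19 without *daf-2(-)* replicate 1 and 15 without *daf-2(-)* replicate 2, and the count that fell was 18 without WT replicate 1, 13 without WT replicate 2, 16 without *daf-2(-)* replicate 1 and 10 without *daf-2(-)* replicate 2. *clec-63* lost its call without *daf-2(-)* replicate 2.

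Saposin-like *spp* genes rose in 8 of 23 cases as deposited and 10 scaled, with 0 that fell. Next to *spp-9*, *spp-20* went from 0.59 and 0.11 to 28.4 and 28.3 RPKM and *spp-18* from 96.4 and 125 to 215 and 275, whereas the most abundant member, *spp-5*, was at 3326 and 4052 against 5070.4 and 5133, above WT in both libraries but under the threshold. The count was 5 without WT replicate 1, 9 without WT replicate 2, 6 without *daf-2(-)* replicate 1 and 5 without *daf-2(-)* replicate 2. Thaumatin-family *thn* genes rose in 4 of 8 cases, led by *thn-2* with 20.2 and 75.97 RPKM in WT and 173 and 199.99 in *daf-2(-)*, and their count was 2 without WT replicate 1, 3 without WT replicate 2, 1 without *daf-2(-)* replicate 1 and 1 without *daf-2(-)* replicate 2. *spp-18* lost its call without WT replicate 1 or *daf-2(-)* replicate 2 and *thn-2* without either *daf-2(-)* replicate.

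The fungus-induced peptides *fip* and *fipr* split evenly, 9 of 31 rising and 9 falling as deposited, and 9 and 6 scaled. *fipr-24* was at 4.02 and 4.11 RPKM in WT and 51.7 and 33.9 in *daf-2(-)*, and *fipr-26* at 1.1 and 4.68 against 55.8 and 53.8. In the other direction *fip-2* went from 126 and 108 to 41.5 and 34.3 RPKM and *fipr-10* from 33.2 and 26.6 to 16.37 and 6.47. The strains did not overlap in these 4 genes. *fipr* copies are alike in sequence and may share reads. The count that rose was 6 without WT replicate 1, 9 without WT replicate 2, 6 without *daf-2(-)* replicate 1 and 6 without *daf-2(-)* replicate 2, and the count that fell was 4 without WT replicate 1, 6 without WT replicate 2, 9 without *daf-2(-)* replicate 1 and 6 without *daf-2(-)* replicate 2. *fipr-10* lost its call without either WT replicate or *daf-2(-)* replicate 2.

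Enzymes that modify and conjugate foreign and endogenous lipophilic compounds rose and rarely fell. Cytochromes P450 (*cyp*), which oxidise such compounds, rose in 20 of 81 cases (24.7%) as deposited and 31 scaled, and 2 fell as deposited and 0 scaled. Members of the *cyp-35* subfamily led the rises: *cyp-35B1* was at 2.33 and 3.86 RPKM in WT and 84.3 and 82.7 in *daf-2(-)* (log2 fold change 4.39 (SE 0.23)), *cyp-35B2* at 0.55 and 0.74 against 21.8 and 28.7 and *cyp-35A2* at 44.1 and 103 against 274 and 291. All mutant libraries lay above all WT libraries in these genes. The count that rose was 17 without WT replicate 1, 24 without WT replicate 2, 10 without *daf-2(-)* replicate 1 and 17 without *daf-2(-)* replicate 2. *cyp-35A2* lost its call without either *daf-2(-)* replicate.

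UDP-glucuronosyltransferases (*ugt*), which attach sugars, rose in 12 of 65 cases as deposited and 16 scaled, with 1 and 0 that fell. *ugt-41* was at 20.98 and 26.3 RPKM in WT and 213 and 196 in *daf-2(-)*, and the most abundant, *ugt-22*, at 129.7 and 182 against 315 and 313. Glutathione S-transferases (*gst*) rose in 9 of 45 cases as deposited and 15 scaled, and 0 fell. *gst-29* went from 3.85 and 6.57 to 76.1 and 85.9 RPKM, *gst-39* from 22.5 and 28.5 to 109 and 119.6 and *gst-4*, a widely used reporter of oxidative stress, from 71.4 and 86.8 to 222 and 208. The strains did not overlap in any of these. Short-chain dehydrogenases (*dhs*) rose in 4 of 30 cases as deposited and 10 scaled, and in 2 without *daf-2(-)* replicate 1. The *dhs* share that rose was 13.3% as deposited and 33.3% scaled, against 4.96% and 7.72% of all genes. *ugt-22* lost its call without WT replicate 1 or either *daf-2(-)* replicate.

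Of 15 P-glycoproteins, which export compounds from cells, 13.3% (2 genes) fell and 0 rose as deposited, and 1 fell scaled, where 8.03% and 3.47% of all genes fell. *pgp-6* was at 8.91 and 9.01 RPKM in WT and 2.76 and 1.64 in *daf-2(-)* and kept its call scaled, while *pgp-5*, with 5.69 and 6.85 against 2.47 and 2.21, did not.

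Of 8 superoxide dismutase and catalase genes 5 rose on both scalings. The cytosolic *sod-1*, the most abundant, was at 291 and 334 RPKM in WT and 659 and 756 in *daf-2(-)*, the catalase gene *ctl-2* at 74.6 and 90.3 against 226 and 247 and *ctl-3* at 20.01 and 14.8 against 51.9 and 94.3. The catalase genes are near-identical neighbours, so the split of reads between them is uncertain. *sod-2*, a mitochondrial form beside *sod-3*, did not rise, with 164 and 163 RPKM in WT and 163 and 95.8 in *daf-2(-)*. *ctl-3* lost its call without WT replicate 2.

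Small heat shock proteins, chaperones that hold unfolded proteins, rose in 4 of 14 cases as deposited and 8 scaled. *hsp-12.3* was at 16.3 and 21.97 RPKM in WT and 149.8 and 129.7 in *daf-2(-)*. *hsp-16.2* was at 90.6 and 76.2 against 339 and 206, and *hsp-16.41* at 90.8 and 108 against 488 and 293. In these *hsp-16* genes *daf-2(-)* replicate 1 was above replicate 2. The other *hsp-16* genes, *hsp-16.1*, *hsp-16.11*, *hsp-16.48* and *hsp-16.49*, were not called as deposited, and their *daf-2(-)* replicate 2 was close to WT. *hsp-16.1* was at 296 and 313 RPKM in WT and 814 and 331 in *daf-2(-)*, and *hsp-16.48* at 413 and 478 against 1025 and 494. Near-identical copies occur among the *hsp-16* genes. The family's count was 4 without WT replicate 1, 4 without WT replicate 2, 4 without *daf-2(-)* replicate 1 and 8 without *daf-2(-)* replicate 2. Among HSP70 and HSP90 chaperones the heat-inducible *hsp-70* rose, from 9.69 and 9.11 to 112.5 and 46.8 RPKM, again with replicate 1 the higher, while the constitutive *hsp-1* was at 1228 and 1256 against 1052 and 958. *hsp-16.2* and *hsp-70* lost their call without WT replicate 2.

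Some enzymes of fat breakdown, the glyoxylate shunt and sugar storage rose in *daf-2(-)*. Lysosomal-type lipases (*lipl*) rose in 4 of 8 cases as deposited and 5 scaled. *lipl-1* was at 6.56 and 25.4 RPKM in WT and 86.0 and 98.2 in *daf-2(-)*, and *lipl-2* at 46.0 and 67.9 against 198 and 169. Their count was 2 without WT replicate 1, 5 without WT replicate 2, 1 without *daf-2(-)* replicate 1 and 1 without *daf-2(-)* replicate 2. Isocitrate lyase and malate synthase are joined in *icl-1*, the enzyme of the glyoxylate shunt, which rose from 248 and 342 to 726 and 772 RPKM (log2 fold change 1.36 (SE 0.18)). The PEP carboxykinase genes, whose enzyme starts gluconeogenesis, rose as well, *pck-1* from 100.8 and 124 to 337 and 339.7 RPKM and *pck-2* from 761 and 958 to 1912 and 2013. All 3 were called with each library left out. *fbp-1*, for a later step of gluconeogenesis, was at 220.1 and 231 RPKM against 363 and 359, above WT in both libraries but under the threshold. *lipl-1* lost its call without either *daf-2(-)* replicate.

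Of 10 genes for trehalose and glycerol, 3 rose and 0 fell as deposited, 5 rose scaled, and 5 rose without WT replicate 2. Those that rose as deposited were the glycerol-3-phosphate dehydrogenase gene *gpdh-1*, from 6.53 and 4.47 to 31.04 and 32.8 RPKM, and both trehalose synthases, *tps-1* from 8.47 and 9.66 to 29.1 and 22.8 and *tps-2* from 21.4 and 26.1 to 74.2 and 70.5. The strains were apart in all 3. Of 33 acyl-CoA synthetase and dehydrogenase genes 2 rose and 3 fell as deposited, and 6 rose and 1 fell scaled, and the count that fell was 1 without WT replicate 1 and 1 without *daf-2(-)* replicate 2. As deposited 6.06% rose and 9.09% fell, near the 4.96% and 8.03% of all genes. Scaled, 18.2% rose and 3.03% fell, against 7.72% and 3.47%. Of the single genes in this family, *acs-2*, an acyl-CoA synthetase of mitochondrial fat oxidation, rose from 40.1 and 44.6 to 129 and 128 RPKM. *acdh-2*, an acyl-CoA dehydrogenase gene, fell from 102 and 92.0 to 26.5 and 24.2. Fatty acid elongases had 0 of 9 called as deposited and 1 that rose scaled, with 4 at an unadjusted limma p of at most 0.05 as deposited.

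Lysosomal and gut proteases were abundant and mostly higher. Of 6 aspartyl proteases 4 rose as deposited and 5 scaled. *asp-3* was at 904 and 1352 RPKM in WT and 3647 and 4288 in *daf-2(-)*, and *asp-5* at 656 and 897 against 1833 and 2179. *asp-6* was at 1323 and 2176 against 3479 and 4211. WT replicate 2 was the higher WT library in each, and their count was 2 without WT replicate 1, 4 without WT replicate 2, 2 without *daf-2(-)* replicate 1 and 1 without *daf-2(-)* replicate 2. The cathepsin B-like genes differed among themselves: *cpr-2* rose from 0.39 and 0.08 to 22.3 and 28.7 RPKM, *cpr-5* fell from 269.7 and 386 to 77.1 and 86.3, and the most abundant, *cpr-6*, was at 786 and 1293 against 1219 and 1388, with overlap. *asp-5* lost its call without *daf-2(-)* replicate 2 and *asp-6* without WT replicate 1 or either *daf-2(-)* replicate.

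Several single metabolic genes, chosen after their values were seen, had large differences. *sodh-1*, an alcohol dehydrogenase gene, was at 110.5 and 207 RPKM in WT and 1031 and 1214 in *daf-2(-)*, and *cth-1*, for cystathionine gamma-lyase, at 107 and 93.2 against 501 and 550.4. The glyceraldehyde-3-phosphate dehydrogenase gene *gpd-3* went from 886 and 960.3 to 1918 and 2107 RPKM. The ferritin gene *ftn-1*, for an iron store, was at 13.1 and 41.5 against 121 and 100.9. In the other direction *msra-1*, which repairs oxidised methionine, fell from 581 and 486 to 155 and 138 RPKM. All 5 were free of overlap. *ftn-1* lost its call without either *daf-2(-)* replicate.

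Small secreted proteins of less certain role rose in numbers. Transthyretin-related *ttr* genes rose in 17 of 58 cases (29.3%) as deposited and 24 scaled, and 2 and 0 fell. *ttr-51* was at 666 and 1069 RPKM in WT and 2399 and 2185 in *daf-2(-)*, and *ttr-26* at 51.4 and 71.1 against 307 and 288. *ttr-45* was at 183 and 326 against 882 and 909. The mutant libraries were nearly equal in all 3 and above both WT libraries. The count was 10 without WT replicate 1, 18 without WT replicate 2, 8 without *daf-2(-)* replicate 1 and 10 without *daf-2(-)* replicate 2. *ttr-51* and *ttr-45* lost their call without either *daf-2(-)* replicate.

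SCP-like *scl* genes, whose products are related to sperm-coating and venom allergen proteins, rose in 7 of 22 cases on both scalings. *scl-11*, *scl-13* and *scl-19* were at 0 or not listed in both WT libraries. They stood at 8.86 and 11.99, 9.94 and 14.9 and 5.34 and 2.66 RPKM in *daf-2(-)*, and *scl-12* was at 0 and 0.12 against 17.96 and 25.9. *scl-22* was measured in both strains, at 8.0 and 8.53 RPKM in WT and 52.8 and 41.2 in *daf-2(-)*. Its log2 fold change was 2.36 (SE 0.19). Galectins (*lec*), a family chosen after its values were seen, rose in 4 of 12 cases as deposited and 6 scaled, and in 2 without WT replicate 1, 2 without *daf-2(-)* replicate 1 and 2 without *daf-2(-)* replicate 2.

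Other signalling families held few calls. Neuropeptide-like *nlp* genes rose in 4 of 43 cases (9.3%) and fell in 0 as deposited, where 4.96% and 8.03% of all genes did, and rose in 1 without WT replicate 1, 1 without *daf-2(-)* replicate 1 and 2 without *daf-2(-)* replicate 2. Among them *nlp-39* stood out, at 5.06 and 11.1 RPKM in WT and 124 and 172 in *daf-2(-)*, a log2 fold change of 4.10 (SE 0.33), and *nlp-40*, a peptide released by the intestine, rose from 227 and 321 to 548 and 621. FMRFamide-like *flp* genes had 0 of 29 that rose and 2 that fell as deposited, and the count that fell was 0 without WT replicate 1, 1 without *daf-2(-)* replicate 1 and 0 without *daf-2(-)* replicate 2. The *flp* falls were 6.9%, near the 8.03% of all genes. Nuclear hormone receptors rose in 11 (4.1%) and fell in 8 (2.99%) of 268 cases as deposited, and in 14 (5.22%) and 4 (1.49%) scaled. Each share was below that of all genes, 4.96% and 8.03% as deposited and 7.72% and 3.47% scaled. The count of receptors that rose was 7 without WT replicate 1 and 5 without *daf-2(-)* replicate 1, and the count that fell was 2 without WT replicate 1, 5 without WT replicate 2 and 1 without *daf-2(-)* replicate 2. Of these *nhr-155* was at 0.26 and 0.06 RPKM in WT and 7.02 and 5.10 in *daf-2(-)*, and *nhr-17* at 26.98 and 25.8 against 114 and 69.9. *nlp-40* lost its call without WT replicate 1 or either *daf-2(-)* replicate.

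Chemoreceptor genes, most of them used in few neurons, were called in 11 of 1212 cases as deposited, 5 up and 6 down, and 8 and 3 scaled, a smaller share than that of all genes in each direction. Without *daf-2(-)* replicate 1, 14 were called up. Only 48 of the 1212 reached a mean RPKM of 1, against 14220 of the 20300 genes tested. The pseudocount of 1 RPKM understates changes below that level, so the small share does not show that these genes were stable. With a pseudocount of 0.1 RPKM 32 rose and 42 fell, against 1484 and 2881 of all genes. Tested among genes whose mean RPKM reached 1 only, 4 rose and 6 fell. *srbc-15* was at 0.07 and 0 RPKM in WT and 12.26 and 11.5 in *daf-2(-)*, and *str-7* at 1.05 and 0.57 against 18.5 and 16.51. In the other direction *srw-85* was at 10.2 and 9.13 against 0.77 and 0, and *sri-40* at 13.5 and 11.3 against 1.45 and 1.73. All 4 were without overlap. F-box genes of the *fbxa*, *fbxb* and *fbxc* groups, which direct proteins to degradation, rose in 20 and fell in 15 of 380 cases as deposited and in 23 and 5 scaled, and the count that fell was 25 without WT replicate 1, 7 without WT replicate 2 and 4 without *daf-2(-)* replicate 2. Of the F-box genes 5.26% rose and 3.95% fell as deposited, against 4.96% and 8.03% of all genes. Scaled, these shares were 6.05% and 1.32%, against 7.72% and 3.47%. The mean RPKM reached 1 in 150 of the 380 F-box genes, and with a pseudocount of 0.1 RPKM 34 rose and 66 fell as deposited. Among globins *glb-1* rose from 245 and 379 to 1260.1 and 1241 RPKM, and *glb-26* fell from 62.04 and 70.5 to 31.2 and 22.2.

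Housekeeping families gave a frame for the scaling. Of 75 cytosolic ribosomal protein genes 0 were called on either scale. As deposited 72 of them lay below both WT libraries in both mutant libraries, against 43.2% of all genes. Their median log2 fold change changed sign, from -0.22 as deposited to 0.08 scaled. Limma's unadjusted p was at most 0.05 for 15 of them as deposited. Proteasome subunits had a median of -0.49 as deposited and -0.20 scaled and 0 of 32 called, with 29 at such a p. Mitochondrial ribosomal proteins fell in 10 of 62 cases as deposited and 2 scaled, with *mrpl-53* at 108 and 88.95 RPKM in WT and 43.4 and 31.4 in *daf-2(-)*. As deposited their count was 2 without WT replicate 1, 21 without *daf-2(-)* replicate 1 and 3 without *daf-2(-)* replicate 2.

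The calls were spread over all chromosomes, though not evenly. On chromosome V 7.31% of 4416 genes rose and 7.09% fell as deposited, and 10.6% rose and 4.05% fell scaled. On chromosome III 3.65% of 2494 genes rose and 9.46% fell as deposited, and 5.89% rose and 2.25% fell scaled. The share that rose was highest on V and lowest on I as deposited (3.53% of 2691 genes), and highest on V and lowest on III scaled. These shares are a description, and no test of the difference between chromosomes was made.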

How the data were processed

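Total RNA of mixed-stage cultures was made into libraries and sequenced on the Illumina GAIIx, with 2 libraries for each strain. The submitters' notes name CASAVA 1.8.2. According to the study's methods, the authors trimmed adaptors and used CLC Genomics Workbench with the WS230 reference for alignment and for RPKM, at default settings, and the deposited tables give the RPKM per gene and replicate, with no counts. How reads matching several genes were treated, and whether strand was used, is not given in the sources used here, so near-identical, overlapping and antisense genes are uncertain. The *daf-2(-)* and WT tables were joined by gene name in Python 3.11.15 with pandas 2.3.3, commas inside numbers were removed, a gene absent from a table was set to 0, and 6 names found on several lines were dropped. Entries with a position after the name (109 in the joined tables) were kept as genes of their own. Depth was estimated from the RPKM step of a single read in genes below 1.5 RPKM, and the tables hold no counts, so no interval for counting error is given.

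The 20300 genes above 0 in at least 1 library were tested by limma 3.58.1, run in R 4.3.3, on log2(RPKM + 1), a pseudocount that understates the change of weakly expressed genes, with the spread modelled as a trend on expression, over these 4 libraries. The double mutant entered neither the fit nor the choice of genes. Calls and Benjamini-Hochberg adjusted p-values are over all genes tested. Median-ratio scaling used the 12679 genes above 1 RPKM in all 4 libraries, with size factors of 1.09 and 1.13 in WT and 0.975 and 0.836 in *daf-2(-)*. The method was tested on simulated data. P-values rest on the spread between 2 libraries a strain, which limma draws towards the spread of genes of similar expression.

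Members and lists were chosen with earlier results of these data known. Families are symbol patterns, and the one for chemoreceptors was narrowed afterwards to leave out serpins (*srp*) and other unrelated symbols. Genes named are the 10 largest rises and 10 largest falls among genes called on both scalings with no overlap and a mean RPKM that reached 10, up to 4 called members each way and the most abundant member of a family or list, the members of the 3 insulin lists, and *daf-2*. Of these a part is given, and 1 gene of the insulin cascade is not reported here. Others, including several uncalled members given for contrast (such as *csr-1*, *pha-4*, *fbp-1*, *sod-2*, *vit-4* and *msp-51*), were chosen after their values were seen. Chromosomes are from the WBcel235 annotation, matched by name for 18310 genes (90.2%). Alternatives were other pseudocounts, filters on low or missing values, quantile normalization, adjusted p-values, limma without the trend, a fit over all 6 libraries, the replicate number as a block and each library left out. No promoter or protein sequence was used here.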

Additional observations from a re-analysis of the deposited data

How the results depend on the processing

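The count of genes that rose was 1568 and of those that fell 704 after median-ratio scaling, against 1007 and 1631 as deposited. The count that fell was 846 with quantile normalization and 2881 with a pseudocount of 0.1 RPKM, and on the scaled values 1497 with that pseudocount, since a smaller pseudocount lets weakly expressed genes pass the fold threshold. With a library left out, the count that rose ranged from 784 to 1098 and the count that fell from 697 (without *daf-2(-)* replicate 2) to 2257 (without *daf-2(-)* replicate 1), and was 1053 without WT replicate 2. Scaled, the ranges were 1138 to 1557 and 386 (without *daf-2(-)* replicate 2) to 812. At an adjusted p of at most 0.05 such fits called 0 genes, with between 4925 and 7405 genes at an unadjusted limma p of at most 0.05.

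With the replicate block 1016 genes rose and 1639 fell as deposited, and 1588 and 713 scaled. The labels give both strains replicates 1 and 2, but the differences between replicates correlated at r = 0.11 across 14220 genes, with only 2 pairs, so the numbers were not taken to pair the libraries.

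Of 170 called genes named here, 165 were also called after median-ratio scaling and 116 under every alternative. That 0 of the 170 changed sign under any alternative was made likely by their choice as called genes, so it is no further support. Among the uncalled, median-ratio scaling changed the sign for *dpy-5* (0.01), *pha-4* (0.06) and *sip-1* (0.15), and quantile normalization for *act-5* (-0.41), *cpr-6* (-0.20), *perm-2* (-0.34) and *pha-4* (0.05). With a library left out, *perm-2* ranged from -0.21 (without WT replicate 1) to 0.46, *vit-2* from -0.25 (without WT replicate 1) to 0.87, *sip-1* from -0.50 to 0.21 (without WT replicate 2), *act-5* from -0.03 (without *daf-2(-)* replicate 2) to 0.26, and *msp-51* from -2.06 to 1.06 (without *daf-2(-)* replicate 2), and the ratio of mean RPKM of *msp-51* gave 0.21.

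Depth limits the weakly expressed genes: 1 read in a gene of 1 kb equals between 0.0642 and 0.105 RPKM, the latter in *daf-2(-)* replicate 2.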

Other observations

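Among 18286 protein-coding genes placed on WBcel235, stretches of at least 4 neighbouring genes that moved the same way on both scalings occurred 5 times for rises (23 genes) and 5 times for falls (22 genes). They were looked for after the calls were known, and no test of their number was made. The longest, of 6 genes on chromosome V, ran from *K06H6.4* to *ZK488.5* and held genes that rose by between 1.09 and 4.44 on the log2 scale. *K06H6.1* in it was at 0 or not listed in both WT libraries and at 9.37 and 9.10 RPKM in *daf-2(-)*. Also on V, *F22B8.7*, *str-7*, *cth-1* and *F44G3.2* rose next to each other, *F22B8.7* from 38.96 and 40.8 to 145 and 153 RPKM. On IV 5 neighbours from *C32H11.3* to *C32H11.8* fell, *C32H11.4* from 33.3 and 47.5 to 6.87 and 3.89 RPKM. On X *nspc-16* to *nspc-19*, nematode-specific peptides of a repeated family, fell together, *nspc-16* from 91.3 and 105 to 16.8 and 8.33 RPKM. In the annotation 0 of the genes of the stretches named here share exon sequence with a gene on either strand. Another stretch that rose, on IV, holds *F17E9.2* and *col-116*, which share 97.3% and 27.1% of their exon length with genes on the same strand. Whether neighbours of this kind are copies that share reads was not tested.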
